A study of Homo sapiens with 15 samples.

Results

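The genes described here are 10 genes of the Notch pathway, out of the 57272 genes in the count table: the ligands JAG1 and JAG2, the receptors NOTCH1, NOTCH2 and NOTCH3, the glycosyltransferase LFNG, and the target genes HES1, HEY1, HEY2 and HEYL. They were listed by name and matched to Ensembl identifiers through GENCODE 44. The list was drawn up because JAG2 had been seen to rise at senescence and with siLMNB1 in these same libraries, so JAG2 is described without a test throughout, since each comparison holds libraries on whose values it was chosen.

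Notch is a receptor on the cell surface that is switched on by a ligand, of the Jagged or Delta-like family, on a neighbouring cell. Binding lets an ADAM protease and then gamma-secretase cut the receptor, and the freed intracellular part enters the nucleus. There it joins the DNA-binding protein RBPJ and a Mastermind coactivator, and turns on some repressors of the HES and HEY families. Fringe enzymes such as LFNG add a sugar to the receptor and shift which ligands it answers. In fibroblasts the pathway is known for its part in cell fate, contractile differentiation and the secretory programme of senescent cells.

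RNA was sequenced from MRC-5 cells, primary human fetal lung fibroblasts grown at low oxygen, in 15 libraries of 5 groups with 3 replicates each. Young cells at PD 30 (population doubling) were infected with a lentivirus that carried no insert (empty vector) or TRF2, the telomere-binding protein of shelterin encoded by TERF2. They then received a control siRNA or, in one group with the empty vector, a pool of siRNAs against LMNB1, the gene of the nuclear lamina protein Lamin B1. Senescent cells were infected with the empty or the TRF2 virus before senescence, received the control siRNA, and were collected when growth had stopped. By the study, those with TRF2 had passed more doublings than those with the empty vector. They had also carried the virus longer than young cells with TRF2. In comparisons of senescent cells with TRF2, the vector, the doublings and the time with the virus cannot be told apart. The 3 young groups are named by empty vector, TRF2 and siLMNB1 and the 2 senescent groups by empty vector and TRF2, and cells of all 5 carry a viral vector and an siRNA. All come from 1 cell line, and the study speaks of biological replicates at senescence without saying how they were kept apart, so a p-value measures the spread between these libraries. The comparisons ask how Notch genes differ at senescence, on loss of Lamin B1 and on overexpression of TRF2.

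Total counts lay between 26725885 and 43116046 per library. The 3 libraries with siLMNB1 had 2.36 to 2.91 CPM of LMNB1 (counts scaled to library size after TMM normalisation, the level used below) against 58.6 to 61.0 CPM in young empty-vector cells, and the 6 libraries with the TRF2 virus had 128 to 307 CPM of TERF2 against 21.9 to 26.0 CPM in the other 9. All 9 fibroblast markers checked were detected in every group. EMCN of the endothelial list and CD3E of the blood list had 0 counts in 4 and 5 of the groups. The 5 blood markers summed to 0.0881 to 0.418 CPM in young empty-vector cells. In senescent cells the sums were 1.52 to 2.71 CPM with the empty vector and 2.28 to 3.98 CPM with TRF2. The 7 epithelial markers summed to 4.4 to 13.3 CPM in young and 5.81 to 10.8 CPM in senescent empty-vector cells. The part of other cell types was not tested. The labels call the 6 senescent libraries reanalysed and the 9 young ones not, so an earlier deposit and senescence cannot be told apart. Against the mean of young empty-vector cells, log2 counts shifted by 0.46 to 0.823 per 10 percentage points of exonic GC content in senescent libraries and by -0.00633 to 0.134 in young ones, so both senescent comparisons were fitted a second time with offsets for each library that take out its trend with GC content and length. Of all libraries, replicate 3 of senescent empty-vector cells stood furthest apart, with a chi-square per degree of freedom of 128 and 95.3 against its own replicates. Summed levels of 5 genes of dividing cells were 445 to 473 CPM in young empty-vector cells, 220 to 224 with siLMNB1, 57.2 to 68.4 in senescent empty-vector cells and 32.8 to 37.3 in senescent cells with TRF2, and the part of this in the results below was not tested.

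Of the 10 genes, 8 passed the filter on low counts and entered edgeR's quasi-likelihood test over 15799 genes, and HEY2 and HEYL did not. A gene is said to have risen or fallen where its Benjamini-Hochberg adjusted p was below 0.05 and its log2 fold change reached 1 in size (senescent against young) or 0.58 (all other comparisons).

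The promoters of the genes the results turn on are given first, from RefSeq on GRCh38.p14. The promoter table held 10 windows for 9 of the 10 genes, with 250 bases before and 50 after the start of transcription. HEY1 was not among them. The core recognised by RBPJ, TGGGAA, was searched on both strands, and 24.0% of the 35116 promoters in the table held it at least once and 3.8% at least 2 times. HES1 is shown because it fell the most at senescence, HEYL because it is another target with 2 matches, and JAG2 because of its rise. In HES1 and HEYL the capitals mark the core, in HEYL on the minus strand for the first match, and in JAG2 they mark CG dinucleotides.
HES1, chr3:194135948-194136147, plus strand: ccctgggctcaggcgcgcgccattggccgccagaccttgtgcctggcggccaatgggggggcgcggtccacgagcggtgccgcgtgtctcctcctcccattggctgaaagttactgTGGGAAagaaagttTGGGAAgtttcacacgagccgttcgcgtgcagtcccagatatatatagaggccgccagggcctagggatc
HEYL, chr1:39639644-39639843, minus strand: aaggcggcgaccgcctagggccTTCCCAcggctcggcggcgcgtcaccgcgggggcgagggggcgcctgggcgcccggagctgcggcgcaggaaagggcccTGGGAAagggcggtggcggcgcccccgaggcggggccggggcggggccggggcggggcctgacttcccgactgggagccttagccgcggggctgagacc
JAG2, chr14:105168825-105169024, minus strand: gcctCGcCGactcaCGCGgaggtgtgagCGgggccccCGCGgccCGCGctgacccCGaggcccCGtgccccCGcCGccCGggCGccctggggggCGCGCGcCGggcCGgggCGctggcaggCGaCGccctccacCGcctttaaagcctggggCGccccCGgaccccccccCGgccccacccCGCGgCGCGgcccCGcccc

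The HES1 matches begin 84 and 70 bases before the start, on the same strand. Those of HEYL begin 178 and 99 bases before it, and those of HEY2 at 213 and 3 bases before it. Each of the 2 LFNG promoters held 1 match, and those of JAG1, JAG2, NOTCH1, NOTCH2 and NOTCH3 held none. A match is a run of letters and not a measured site. The JAG2 window stops 49 bases before the RefSeq start, where the gene begins in GENCODE. The whole JAG2 promoter held 46 CG dinucleotides, a number that 2.89% of all promoters reach, against a median of 14.

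JAG2 encodes a Jagged ligand and lies on chromosome 14 from 105140982 to 105168824 on the minus strand. It was close to absent in young empty-vector cells, with 4, 4 and 2 counts in the 3 libraries, and young cells with TRF2 had 11, 19 and 8. With siLMNB1 the counts were 16, 34 and 47. Senescent cells had 139, 124 and 223 counts with the empty vector and 127, 161 and 131 with TRF2. All 6 senescent libraries lay above all 9 young ones, and all 3 libraries with siLMNB1 lay above those of young empty-vector cells. In bulk RNA, more cells that express a gene and more RNA per cell cannot be told apart.

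In CPM the level of JAG2 was 0.11 ± 0.0331 (SD, n = 3) in young empty-vector cells, 0.869 ± 0.299 (SD, n = 3) with siLMNB1 and 5.66 ± 1.38 (SD, n = 3) in senescent empty-vector cells. These are the values on which the list was selected. They correspond to log2 fold changes of 5.62 (SE 0.39) at senescence with the empty vector, 3.52 (SE 0.32) with TRF2 and 2.94 (SE 0.46) with siLMNB1. Because the young libraries hold so few JAG2 reads, the ratio at senescence with the empty vector has a 95% counting interval from 27.7 to 108 around 51.4, and that with siLMNB1 from 4.18 to 17.3 around 8.02, counting error only. JAG2 has the highest exonic GC content of the 10 genes (64.2%, against a median of 47.6% over the genes tested), and with the offsets the log2 fold changes at senescence were 4.67 (SE 0.37) with the empty vector and 2.76 (SE 0.29) with TRF2. Another gene on the same strand shares 7.33% of the exonic bases of JAG2.

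The effect of TRF2 was not part of the choice of JAG2, but its comparisons use libraries that were, so they too are given without a test. In young cells JAG2 was 0.371 ± 0.169 CPM (SD, n = 3) with TRF2, above the empty vector in all 3 libraries, with a log2 fold change of 1.70 (SE 0.53). In senescent cells it was 4.3 ± 0.731 CPM (SD, n = 3) with TRF2 and the groups overlapped, with a log2 fold change of -0.40 (SE 0.24).

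JAG1, the other Jagged ligand (chromosome 20, 10637684 to 10673999), was expressed in every group, over a much narrower range than JAG2. Its levels were 25.0, 23.9 and 23.9 CPM in young empty-vector cells and 28.3, 27.0 and 25.8 CPM with TRF2. With siLMNB1 they were 40.9, 42.0 and 38.0 CPM. Senescent cells had 53.1, 42.8 and 29.1 CPM with the empty vector and 74.1, 62.5 and 75.1 CPM with TRF2. Only the siLMNB1 group and senescent empty-vector cells overlapped among neighbours in this order, and the lowest of the latter was replicate 3.

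JAG1 rose at senescence with TRF2, by a log2 fold change of 1.38 (SE 0.15, edgeR adjusted p = 9.8e-07), and with siLMNB1, by 0.73 (SE 0.15, edgeR adjusted p = 0.0017). At senescence with the empty vector the log2 fold change was 0.78 (SE 0.15, edgeR adjusted p = 0.00033), short of the size required. Within senescent cells JAG1 rose with TRF2 by 0.76 (SE 0.15, edgeR adjusted p = 0.0049). That call was lost without replicate 3 of senescent empty-vector cells (0.56) and in a fit of these 6 libraries alone (adjusted p = 0.16). JAG1 has a GC content of 49.0%, and the offsets left its log2 fold changes at senescence at 0.77 and 1.34. A gene on the opposite strand covers 3.29% of its exonic bases.

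**Figure D1:**
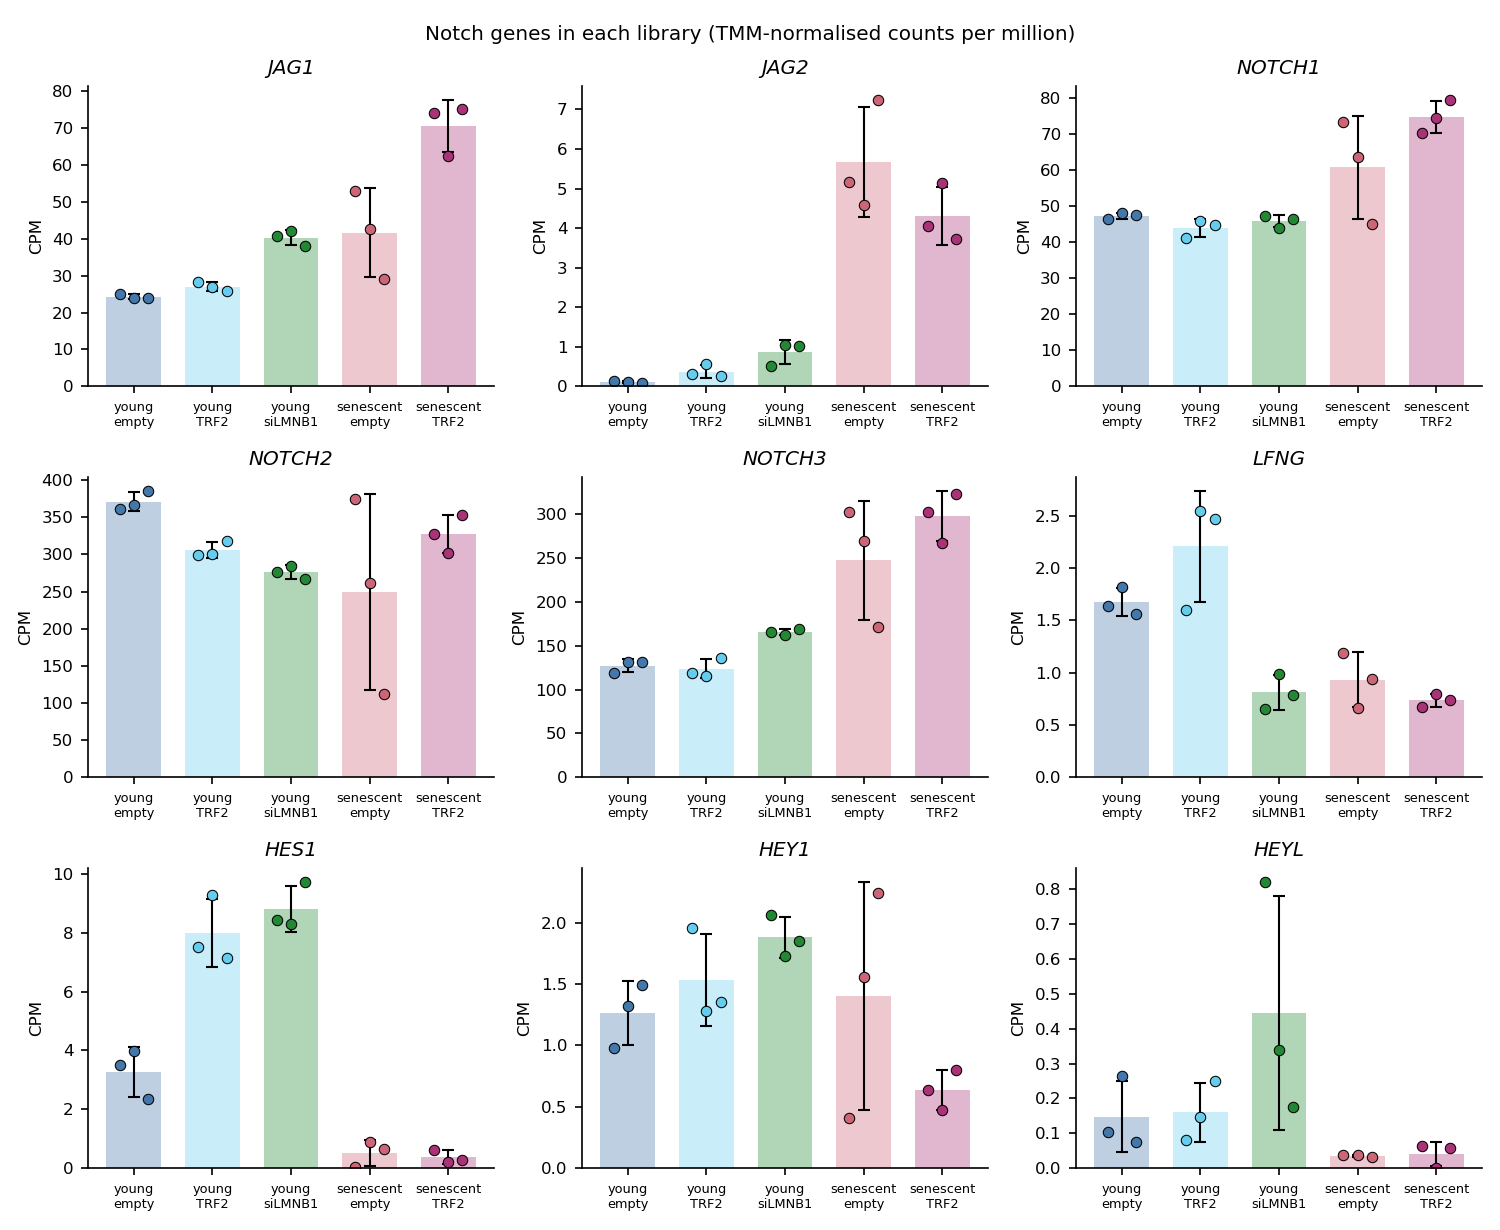
Level of 9 of the 10 genes in each library, in TMM-normalised CPM on linear axes from 0. Dots are libraries in the order of their replicate numbers, bars are means and error bars are the SD of the 3 libraries. JAG2 was at most 1.05 CPM in the young libraries and at least 3.73 CPM in the senescent ones, while HES1 was at least 2.34 CPM in the young and at most 0.889 CPM in the senescent ones. HEY2, with 2 counts in all, is not drawn.

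Per length of transcript the ligands could be compared with each other, on the scale of CPM per kb of exons. JAG2 was 0.0173 ± 0.00517 CPM per kb (SD, n = 3) in young empty-vector cells against 2.61 ± 0.0673 for JAG1, and 0.885 ± 0.216 against 4.48 ± 1.29 in senescent empty-vector cells. Of the summed CPM per kb of the 5 ligands JAG1, JAG2, DLL1, DLL3 and DLL4, the share of JAG2 was 0.159% ± 0.0548 (SD, n = 3) in young empty-vector cells, 1.42% ± 0.525 with siLMNB1 and 10.4% ± 2.85 in senescent empty-vector cells. JAG1 held 23.8% ± 1.92 in young empty-vector cells, 45.1% ± 2.07 with siLMNB1, 52.3% ± 16.0 in senescent empty-vector cells and 71.2% ± 4.68 in senescent cells with TRF2. JAG1 thus remained far above JAG2 in every group.

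The counterpart of these shares was DLL4, a Delta-like ligand best known from endothelial cells, which held 74.3% ± 2.55 (SD, n = 3) of the ligand sum in young empty-vector cells and 19.6% ± 3.42 in senescent cells with TRF2. Its level was 38.9 ± 3.36 CPM (SD, n = 3) in young empty-vector cells, 23.3 ± 3.03 with siLMNB1, 14.2 ± 6.12 in senescent empty-vector cells and 9.92 ± 1.7 in senescent cells with TRF2. DLL4 fell at senescence with the empty vector (log2 fold change -1.45, SE 0.24, edgeR adjusted p = 5.4e-05), with TRF2 (-2.21, SE 0.24, edgeR adjusted p = 8.8e-07) and with siLMNB1 (-0.74, SE 0.23, edgeR adjusted p = 0.020). The call with siLMNB1 did not hold without replicate 2 or 3 of young empty-vector cells (adjusted p = 0.059 and 0.067) or without replicate 3 with siLMNB1 (adjusted p = 0.088). The 7 endothelial markers summed to 30.7 to 33.9 CPM in young empty-vector cells, 32.5 to 37.8 in young cells with TRF2 and 42.7 to 52.2 with siLMNB1. In senescent cells they summed to 24.0 to 61.3 CPM with the empty vector and 59.8 to 70.9 with TRF2. Of the 3 endothelial markers past the filter, 1 rose and 0 fell at senescence with the empty vector. At senescence with TRF2 0 rose and 1 fell, and with siLMNB1 0 rose and 0 fell. The part of endothelial cells in the level of DLL4 was not tested. EMCN had 0 counts in every group but senescent cells with TRF2, CDH5 had 0 in young empty-vector cells and with siLMNB1, and PECAM1 had 0 with siLMNB1.

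**Figure D2:**
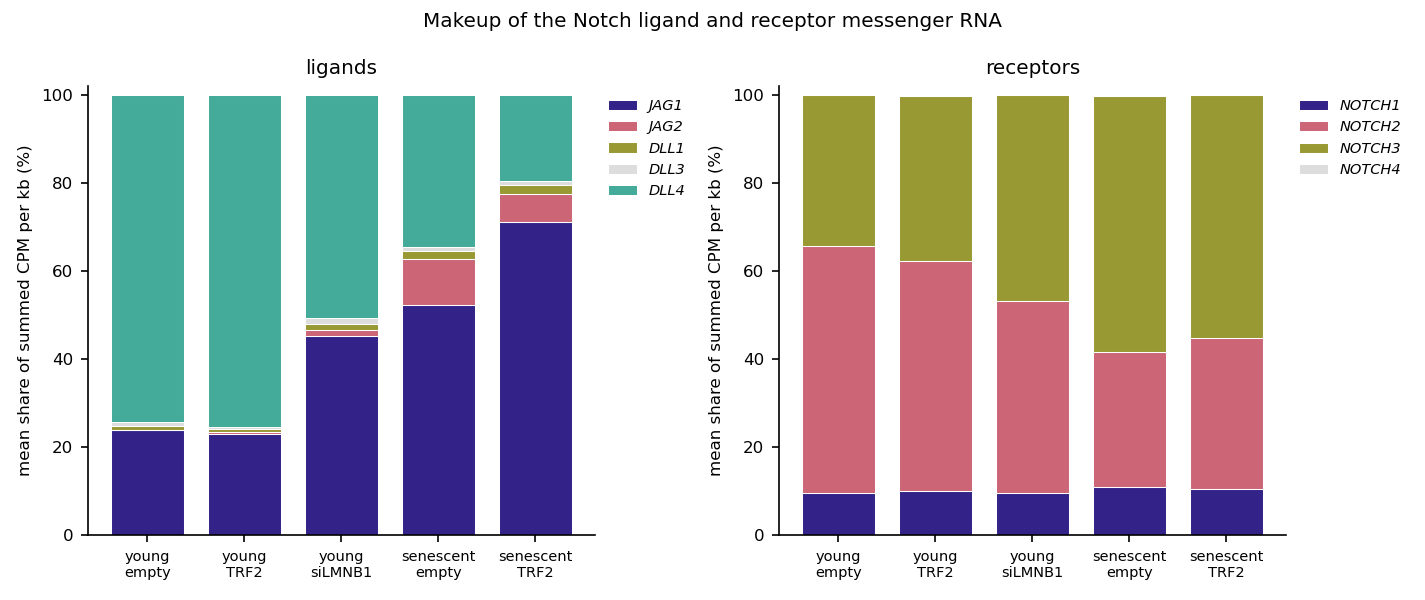
Share of each ligand (left) and each receptor (right) in the summed CPM per kb of its class, in percent, as the mean of 3 libraries in each of the 5 groups. DLL4 holds most of the ligand sum in young empty-vector cells (74.3%) and JAG1 in senescent cells with TRF2 (71.2%), and NOTCH2 holds most of the receptor sum in the former (56.1%) and NOTCH3 in the latter (55.3%).

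NOTCH3 (chromosome 19, 15159038 to 15200995), a receptor known from the mural cells of vessels, had 119, 131 and 132 CPM in young empty-vector cells and 119, 116 and 136 CPM with TRF2. With siLMNB1 it had 166, 162 and 169 CPM. Senescent cells had 302, 269 and 171 CPM with the empty vector and 303, 267 and 323 CPM with TRF2. Each senescent library and each library with siLMNB1 lay above all 6 other young libraries.

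NOTCH3 rose at senescence with TRF2, by a log2 fold change of 1.27 (SE 0.15, edgeR adjusted p = 2.2e-06). With the empty vector it was 0.96 (SE 0.15, edgeR adjusted p = 3.7e-05), just short of the size required, and 1.15 without replicate 3 of senescent empty-vector cells, where it was called. With siLMNB1 it was 0.38 (SE 0.15, edgeR adjusted p = 0.061). NOTCH3 has a GC content of 62.4%, and with the offsets its log2 fold change at senescence was 0.58 (SE 0.17) with TRF2 and 0.15 (SE 0.17) with the empty vector, neither of them called. The 6 markers of smooth muscle and pericytes, tested as a check on other cell types, summed to 415 to 445 CPM in young empty-vector cells, 400 to 465 with siLMNB1 and 452 to 530 in the 6 senescent libraries, and their part was not tested.

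NOTCH1 (chromosome 9, 136494433 to 136546048), a receptor used in many tissues, was the least abundant of the 3 per length. It lay at 41.0 to 48.1 CPM in all 9 young libraries. Senescent cells had 73.3, 63.7 and 45.1 CPM with the empty vector, which overlap the young range in replicate 3, and 70.3, 74.5 and 79.3 CPM with TRF2, which do not. Its log2 fold change at senescence was 0.36 (SE 0.13, edgeR adjusted p = 0.022) with the empty vector and 0.77 (SE 0.13, edgeR adjusted p = 8.1e-05) with TRF2, both below the size required. With the offsets these became -0.50 (SE 0.14) and 0.01 (SE 0.14), so that the direction of NOTCH1 at senescence with the empty vector turned with the correction for GC content, which is 63.2% in NOTCH1. With siLMNB1 the log2 fold change was -0.05 (SE 0.13, edgeR adjusted p = 0.82).

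NOTCH2 (chromosome 1, 119911553 to 120100779) was the most abundant receptor per length in young cells with the empty vector or TRF2. It had 361, 367 and 385 CPM with the empty vector. It was 299 to 318 CPM with TRF2 and 267 to 285 CPM with siLMNB1, and neither range overlaps the first. Senescent cells with the empty vector had 375, 262 and 112 CPM, the widest spread of any receptor, and those with TRF2 had 327, 302 and 353 CPM. No comparison of NOTCH2 passed the test, with a log2 fold change of -0.57 (SE 0.26, edgeR adjusted p = 0.061) at senescence with the empty vector, 0.10 (SE 0.26, edgeR adjusted p = 0.76) with TRF2 and -0.43 (SE 0.26, edgeR adjusted p = 0.22) with siLMNB1. NOTCH2 has near-identical partial copies in the genome, the NOTCH2NL genes, so reads that match both may have been left uncounted.

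In shares of the summed receptor CPM per kb, NOTCH2 went from 56.1% ± 0.871 (SD, n = 3) in young empty-vector cells to 43.6% ± 1.31 with siLMNB1, 30.7% ± 6.92 in senescent empty-vector cells and 34.2% ± 0.239 in senescent cells with TRF2. NOTCH3 went from 34.2% ± 0.879 to 46.6% ± 1.08, 58.2% ± 5.26 and 55.3% ± 1.05 in the same groups. NOTCH1 held between 9.55% and 10.8% on average in all 5 groups, and NOTCH4 at most 0.277%. NOTCH3 thus stood above NOTCH2 with siLMNB1 and in both senescent groups and below it in the other 2, on values without the offsets.

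LFNG, the Lunatic fringe enzyme (chromosome 7, 2512529 to 2529177), was weakly expressed. It had 1.64, 1.82 and 1.56 CPM in young empty-vector cells and 1.6, 2.55 and 2.47 CPM with TRF2. With siLMNB1 it had 0.655, 0.99 and 0.791 CPM. Senescent cells had 1.19, 0.667 and 0.94 CPM with the empty vector and 0.669, 0.796 and 0.741 CPM with TRF2. The libraries with siLMNB1 and the senescent libraries all lay below the young libraries with the empty vector or TRF2.

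LFNG fell with siLMNB1 (log2 fold change -1.04, SE 0.27, edgeR adjusted p = 0.0067) and at senescence with TRF2 (-1.58, SE 0.27, edgeR adjusted p = 8.6e-05). At senescence with the empty vector its log2 fold change was -0.84 (SE 0.27, edgeR adjusted p = 0.012), short of the size required, and -1.06 without replicate 1 of senescent empty-vector cells. LFNG is as rich in GC as NOTCH1, and with the offsets it fell at senescence with the empty vector (log2 fold change -1.68, SE 0.29, edgeR adjusted p = 9.8e-05) and with TRF2 (-2.19, SE 0.28, edgeR adjusted p = 4.7e-06).

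HES1, a repressor and a classical direct target of Notch (chromosome 3, 194136148 to 194138732), moved in opposite directions at senescence and with siLMNB1. The counts were 101, 136 and 63 in young empty-vector cells, 276, 313 and 228 with TRF2, and 257, 268 and 442 with siLMNB1. Senescent cells had 1, 24 and 20 counts with the empty vector and 20, 7 and 10 with TRF2. In CPM the young libraries with the empty vector lay between 2.34 and 3.99, below those with TRF2 (7.14 to 9.29) and with siLMNB1 (8.29 to 9.71), and above all senescent libraries (0.0372 to 0.889).

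HES1 fell at senescence with the empty vector (log2 fold change -2.63, SE 0.43, edgeR adjusted p = 5.7e-05) and with TRF2 (-4.38, SE 0.42, edgeR adjusted p = 2e-07). These are 6.21-fold and 20.8-fold lower levels. With siLMNB1 it rose by a log2 fold change of 1.42 (SE 0.32, edgeR adjusted p = 0.0031), a fold of 2.67. The offsets changed these values little, to -2.80, -4.41 and 1.38, and the calls at senescence and with siLMNB1 held in every fit that left out 1 library. The level required by the filter was reached by HES1 in all 9 young libraries and in 3 of the 6 senescent ones. In young cells with TRF2 the log2 fold change was 1.27 (SE 0.32, edgeR adjusted p = 0.16), not called. It was called in a fit of those 6 libraries alone (adjusted p = 0.0032) and without the filter on low counts (adjusted p = 1e-07).

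HEY1, a target of the HEY family (chromosome 8, 79762371 to 79767857), was weakly expressed, with 0.976, 1.32 and 1.49 CPM in young empty-vector cells and 1.96, 1.28 and 1.35 CPM with TRF2. With siLMNB1 it had 2.06, 1.73 and 1.85 CPM, above the empty vector in all 3 libraries, with a log2 fold change of 0.57 (SE 0.39, edgeR adjusted p = 0.28). Senescent cells with the empty vector ranged from 0.409 to 2.24 CPM, on both sides of the young ones, and those with TRF2 had 0.637, 0.478 and 0.798 CPM, below all young libraries. HEY1 fell at senescence with TRF2 (log2 fold change -1.25, SE 0.42, edgeR adjusted p = 0.017). The call was lost without replicate 2 of senescent cells with TRF2 (-1.09, adjusted p = 0.067) and without replicate 1 of young cells with TRF2 (-1.04, adjusted p = 0.076). With the empty vector the log2 fold change was 0.16 (SE 0.40, edgeR adjusted p = 0.74), and -0.38 without replicate 3 of senescent empty-vector cells.

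HEYL and HEY2 stayed below the filter. HEYL (chromosome 1, 39623435 to 39639643), a HEY-family repressor known from smooth muscle, had 3, 9 and 2 counts in young empty-vector cells, 3, 5 and 8 with TRF2 and 25, 11 and 8 with siLMNB1. Senescent cells had 1, 1 and 1 counts with the empty vector and 2, 0 and 2 with TRF2. The ratio of the normalised counts was 0.227 at senescence with the empty vector (95% counting interval 0.0417 to 0.812), 0.262 with TRF2 (0.0637 to 0.811) and 2.6 with siLMNB1 (1.4 to 5.13), intervals that cover counting error only. HEY2 (chromosome 6, 125747664 to 125761269), known from the heart and arteries, had 2 counts in all 15 libraries together, so no difference was detectable at this depth.

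**Figure D3:**
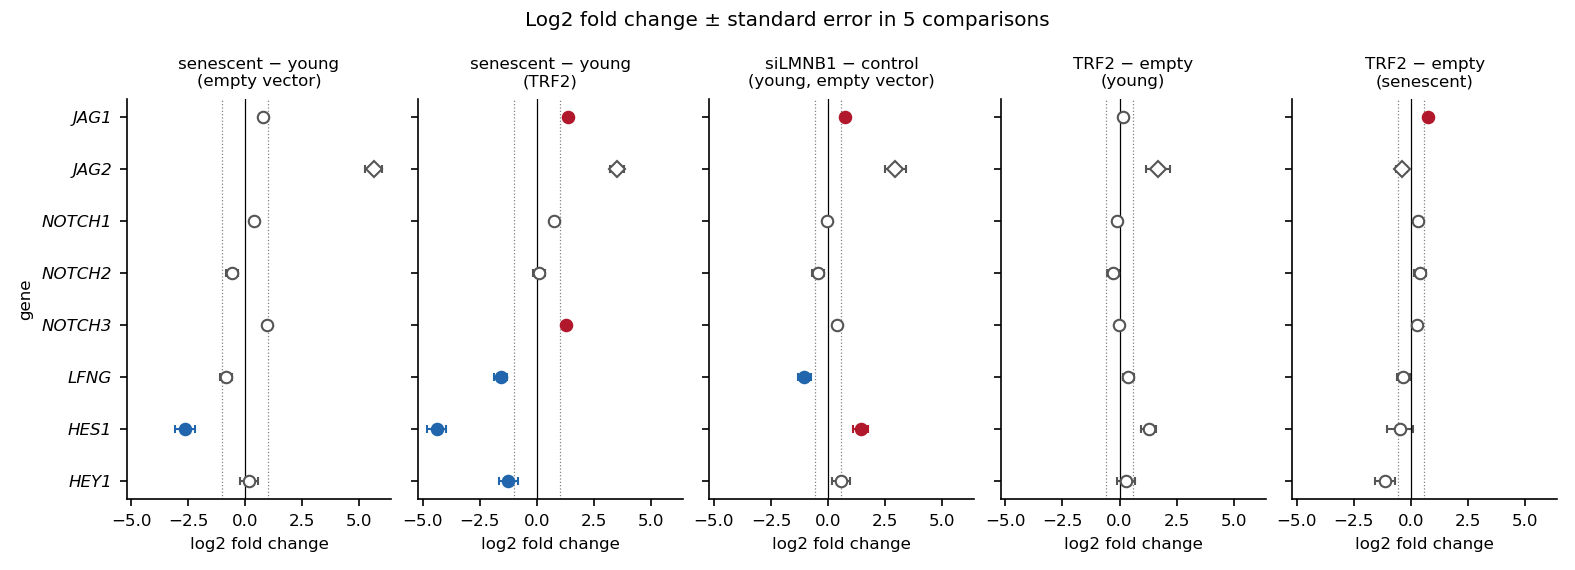
Log2 fold change of the 8 genes past the filter in 5 comparisons, with bars of 1 standard error. Filled red and blue circles rose and fell by the test, open circles did not pass it, open diamonds are the values of JAG2 that were not tested, and dotted lines mark the size required (1 or 0.58). HES1 lies at -2.63 and -4.38 at senescence and at 1.42 with siLMNB1.

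Counted together, 7 of the tested genes (JAG2 aside) gave 0 rises and 1 fall (HES1) at senescence with the empty vector, where 16.7% of all genes tested rose and 11.8% fell. At senescence with TRF2 they gave 2 rises (JAG1 and NOTCH3) and 3 falls (LFNG, HES1 and HEY1), where 11.9% of all genes rose and 12.1% fell. With siLMNB1 they gave 2 rises (JAG1 and HES1) and 1 fall (LFNG), where 10.3% rose and 8.06% fell. The median log2 fold change of the 7 was 0.16, 0.10 and 0.38 in these comparisons, beside 0.02, -0.02 and 0.04 over all genes tested. Senescence with the empty vector and siLMNB1 were both measured against the same 3 young libraries.

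With the offsets, 0 rose and 2 fell (HES1 and LFNG) at senescence with the empty vector, beside 11.7% and 9.49% of all genes. With TRF2, 1 rose (JAG1) and 3 fell (HES1, HEY1 and LFNG), beside 9.25% and 11.0%. NOTCH3 was the 1 call that the offsets removed and LFNG the 1 they added. JAG1, HES1, HEY1 and LFNG kept their calls at senescence with TRF2, and HES1 kept its call at senescence with the empty vector.

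**Figure D4:**
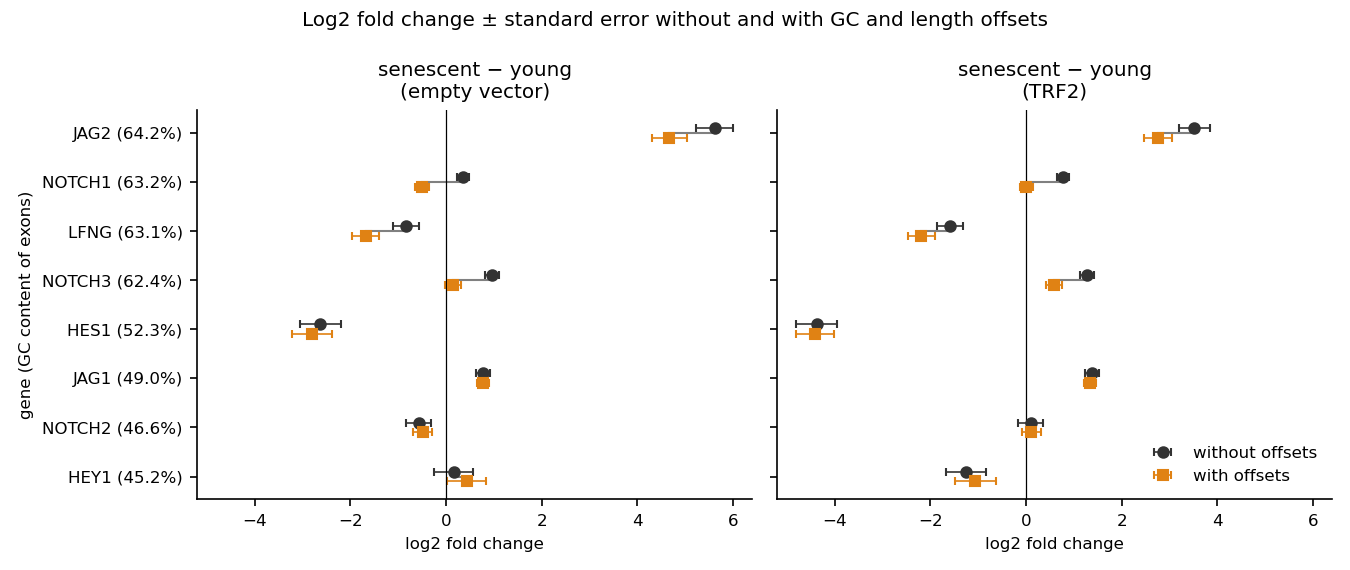
Log2 fold change at senescence of the 8 genes past the filter, with bars of 1 standard error, without offsets (circles) and with offsets for GC content and length (squares), for the empty vector (left) and TRF2 (right). Genes are ordered by the GC content of their exons. The 4 genes richest in GC move to the left, NOTCH1 from 0.36 to -0.50 with the empty vector, while JAG1 stays at 0.78 and 0.77.

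The comparisons with TRF2 called few of these genes, as they did of all genes tested. In young cells 0 of the 7 (JAG2 aside) were called, beside 0.165% of all genes in either direction, with 1 at an unadjusted p below 0.05. DESeq2's Wald test also called 0, while a fit of only the libraries compared and a fit without the filter each called HES1. In senescent cells JAG1 alone rose and 0 fell, beside 2.61% and 4.3% of all genes. HEY1 had a log2 fold change of -1.14 (SE 0.43, edgeR adjusted p = 0.097) there, and DESeq2 called it (adjusted p = 0.049).

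Whether senescence differed between the TRF2 and the empty vector was tested by the interaction of the 2 factors. It called 0 of the 7 genes by edgeR and 0 by DESeq2, beside 1.13% of all genes, with 4 at an unadjusted p below 0.05. The fall of HES1 differed by -1.75 (SE 0.66, edgeR adjusted p = 0.21), the change of HEY1 by -1.42 (SE 0.58, edgeR adjusted p = 0.25) and that of JAG1 by 0.61 (SE 0.21, edgeR adjusted p = 0.19). These results depended on replicate 1 of senescent empty-vector cells, the library with 1 count of HES1. Without it, 5 genes were called, namely HES1 (-2.27), HEY1 (-1.84), JAG1 (0.82), NOTCH1 (0.57) and NOTCH2 (1.09). Over all genes, 2089 were called in that fit, against 179 with all libraries. Whether the Notch genes shifted more than other genes was not tested. Senescent empty-vector cells are then left with replicates 2 and 3, of which replicate 3 stood furthest apart.

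The wider pathway was followed with a list of 53 other genes, of which 50 were in the table and 46 passed the filter. At senescence with the empty vector 11 of the 46 rose and 3 fell, with TRF2 8 rose and 2 fell, and with siLMNB1 6 rose and 5 fell, against the shares of all genes given above. These counts hold genes that passed the filter only through groups in which they are high, so that a difference was favoured. They are DLK1, HES2 and HES7 at senescence and HES2 with siLMNB1, and their values are given below without a test. With the offsets the senescent counts were 4 and 2, and 5 and 2. TRF2 called 0 of the 46 in young and 0 in senescent cells by edgeR, with 2 and 10 at an unadjusted p below 0.05, and DESeq2 called 0 and 1 (NEURL1B, log2 fold change 0.68). With the offsets TRF2 called 2 in senescent cells, HES6 (0.83, edgeR adjusted p = 0.0072) and NEURL1B (0.76, edgeR adjusted p = 0.047).

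Among the ligands beside DLL4, DLK1, a Delta-like protein that lacks the domain by which other ligands activate Notch, was at 0.174 ± 0.122 CPM (SD, n = 3) in young and 1.61 ± 0.655 CPM in senescent cells with the empty vector. Its log2 fold change was 3.16 (SE 0.52) there and 2.78 (SE 0.48) with TRF2. Young libraries with the empty vector or TRF2 held 1 to 10 counts of DLK1, none of them at the level required by the filter, against 24 to 67 in the senescent ones. Its relative DLK2 rose with siLMNB1 (1.61, SE 0.38, edgeR adjusted p = 0.0039). The ubiquitin ligases that activate ligands in the signalling cell split. MIB2 rose at senescence with the empty vector (1.90) and TRF2 (1.5), NEURL1B fell in both (-2.17 and -1.27) and with siLMNB1 (-0.66), and MIB1 fell with the empty vector (-1.16). NEURL1 rose at senescence with the empty vector (1.47), though its senescent and young libraries overlapped, and was not called with the offsets (0.5). The offsets removed the calls of MIB2 (0.75 and 0.58) and MIB1 (-0.69) and left those of DLL4 and NEURL1B. MIB1 also lost its call without replicate 3 of senescent empty-vector cells (-0.83). NEURL1B lost its call with siLMNB1 without replicate 2 of young empty-vector cells (adjusted p = 0.054) or replicate 2 with siLMNB1 (adjusted p = 0.074).

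Of the 9 genes of the nuclear complex and its corepressors, 1 was called with siLMNB1 (RBPJ), where 10.3% of all genes rose and 8.06% fell. At senescence 1 was called in each comparison (MAML3). Of all genes 16.7% rose and 11.8% fell there with the empty vector, and 11.9% rose and 12.1% fell with TRF2. RBPJ, the factor through which Notch acts on its targets, went from 355 ± 6.19 to 128 ± 5.3 CPM (SD, n = 3) with siLMNB1, a log2 fold change of -1.47 (SE 0.14, edgeR adjusted p = 1.4e-06), in the same cells in which HES1 rose. At senescence its log2 fold change was -0.46 (SE 0.14, edgeR adjusted p = 0.0089) with the empty vector and 0.05 (adjusted p = 0.55) with the offsets. With TRF2 it was -0.53 (SE 0.14, edgeR adjusted p = 0.0037), and -0.24 (adjusted p = 0.0094) with the offsets. RBPJ has processed copies elsewhere in the genome, so its counts depend on how reads that match several places were handled. MAML3, a Mastermind coactivator, rose at senescence with the empty vector (1.65, SE 0.14, edgeR adjusted p = 4.2e-08) and TRF2 (1.46, SE 0.14, edgeR adjusted p = 1.4e-07), with and without the offsets. With siLMNB1, the protease ADAM17 rose (0.94, SE 0.11, edgeR adjusted p = 1.2e-05), as did the gamma-secretase subunit PSENEN (0.67, SE 0.24, edgeR adjusted p = 0.041) and DTX3 of the Deltex family (0.64, SE 0.14, edgeR adjusted p = 0.0024), while the subunit APH1B fell (-0.94, SE 0.11, edgeR adjusted p = 1.3e-05). Leaving out 1 library at a time, PSENEN lost its call in 5 of 6 fits (0.41 to 0.77, adjusted p from 0.052 to 0.20) and DTX3 in 1, without replicate 3 with siLMNB1 (0.57). Other genes share 52.2% of the exonic bases of PSENEN and 11.7% of those of ADAM17, so these counts depend on how overlapping genes were counted.

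Among the other genes of the HES family, HES4 and HES6 rose at senescence, where HES1 fell, beside the 16.7% and 11.9% of all genes that rose. HES4 had a log2 fold change of 1.84 with the empty vector and 1.33 with TRF2, and HES6, known to oppose HES1, 1.36 and 1.83. With the offsets neither was called, with 0.04 and 0.04 for HES4 and 0.05 and 0.91 for HES6, and without replicate 3 of senescent empty-vector cells HES6 was at 0.96 with the empty vector, not called. HES2 and HES7 were close to absent in young cells with the empty vector or TRF2, with 1 to 7 counts in each library, none at the level required by the filter. HES2 was at 0.069 ± 0.0688 CPM (SD, n = 3) in young and 1.42 ± 0.162 CPM in senescent cells with TRF2, a log2 fold change of 4.30 (SE 0.60). HES7 was at 0.163 ± 0.0948 CPM (SD, n = 3) in young and 1.27 ± 0.714 CPM in senescent cells with the empty vector. The log2 fold change of HES7 there was 2.98 (SE 0.56). With siLMNB1, HES2 had 16 to 22 counts and a log2 fold change of 2.15 (SE 0.62). HES4 rose with siLMNB1 (1.02, SE 0.28, edgeR adjusted p = 0.0097), a call lost without replicate 1 of young empty-vector cells or replicate 3 with siLMNB1 (0.86 and adjusted p = 0.052 in both). Outside the HES family, CCND1, a cyclin with many regulators, rose at senescence with the empty vector (1.01, SE 0.10, edgeR adjusted p = 2.6e-07). It fell with siLMNB1 (-0.90, SE 0.10, edgeR adjusted p = 5.4e-06). The rise lay just past the size required and was not called with the offsets (0.88), without replicate 1 of young (0.99) or replicate 2 of senescent empty-vector cells (0.88), or at senescence with TRF2 (0.93).

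**Figure D5:**
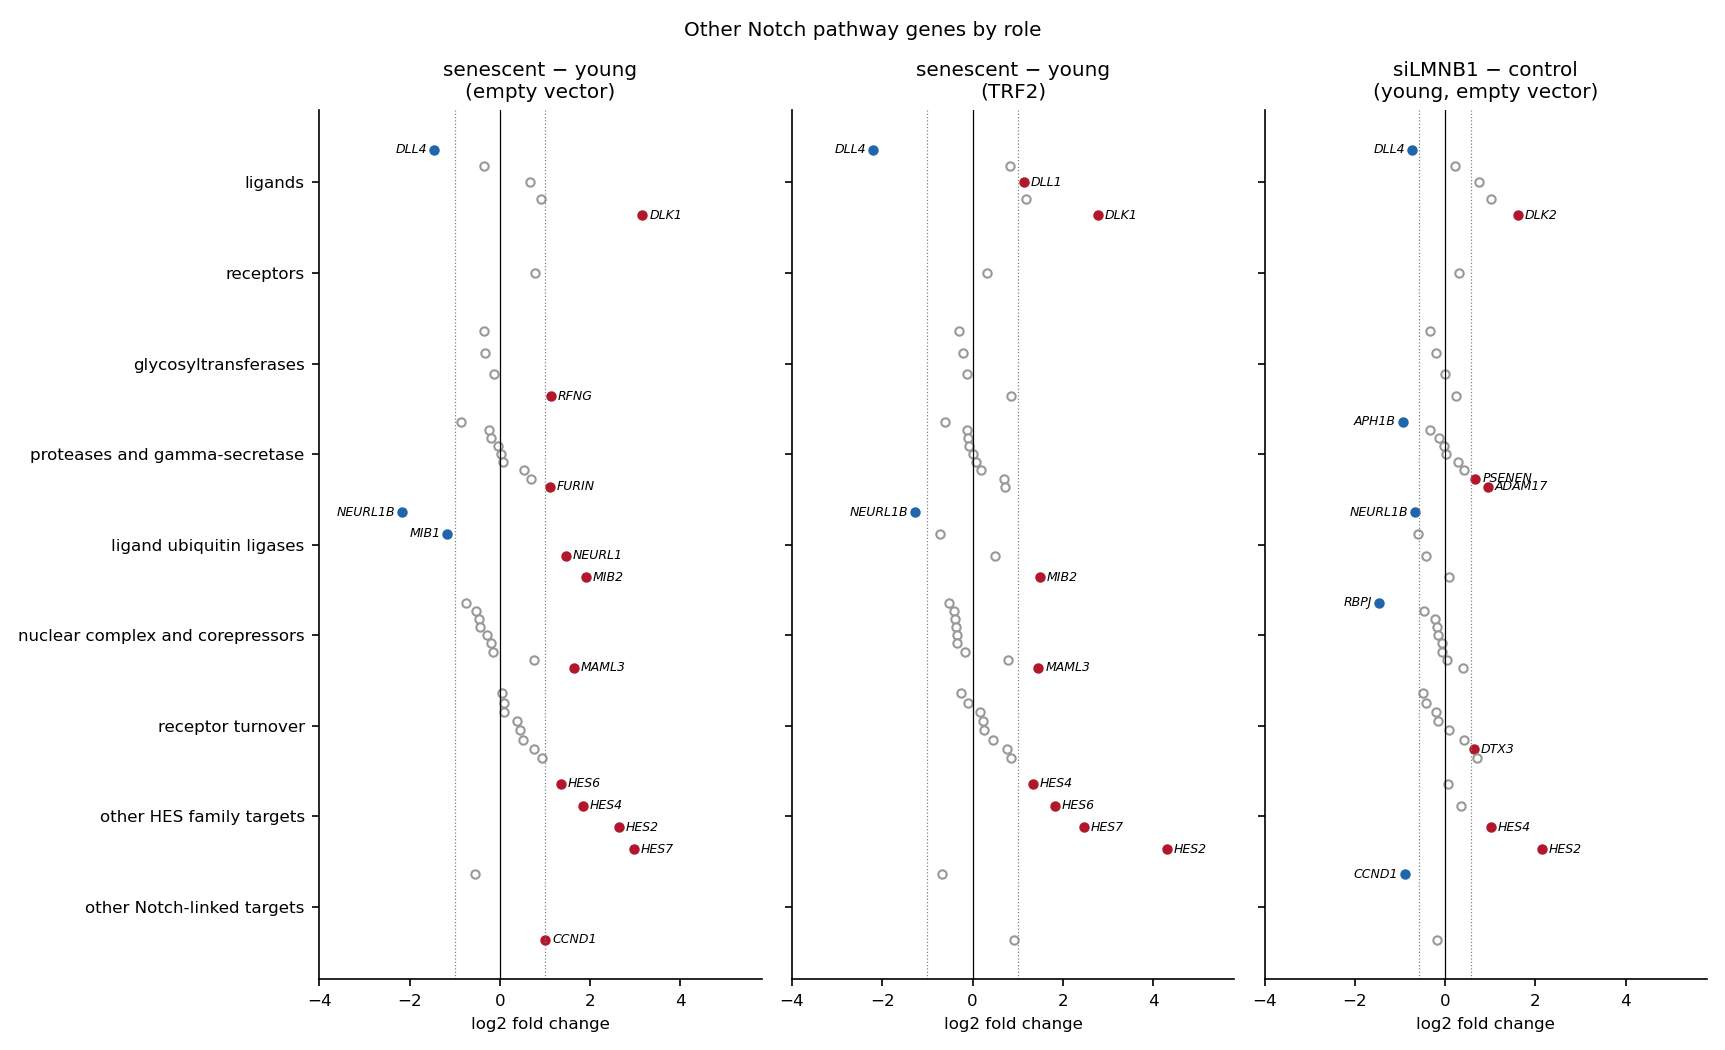
Log2 fold change of the 46 tested genes of the wider list, grouped by role, at senescence with the empty vector (left), at senescence with TRF2 (middle) and with siLMNB1 (right). Filled red and blue circles with names rose and fell by the test, open circles did not pass it, and dotted lines mark the size required (1 or 0.58). Height within a role only separates the points. DLK1, HES2 and HES7 at senescence and HES2 with siLMNB1 passed the filter only through groups in which they are high. DLL4 and NEURL1B lie on the left in all 3 panels and 4 HES genes on the right in the first 2.

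The genes beside JAG2 on chromosome 14 were followed as well. NUDT14, a sugar-nucleotide hydrolase 4114 bases away, rose at senescence with the empty vector (log2 fold change 1.51, SE 0.23, edgeR adjusted p = 2.5e-05) and with siLMNB1 (1.08, SE 0.23, edgeR adjusted p = 0.0017), and was 0.72 (SE 0.22, edgeR adjusted p = 0.010) at senescence with TRF2. With the offsets its log2 fold change at senescence was 0.52 with the empty vector, not called, and 0.95 with siLMNB1, still called. CDCA4, the nearest tested coding gene on the other side at 119899 bases, was -0.26, -0.21 and -0.12 in the same 3 comparisons with the empty vector, TRF2 and siLMNB1, none of them called.

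The 5 tested coding genes whose log2 level ran closest to that of JAG2 over the 15 libraries were QSOX1 (Pearson r = 0.982), TRAPPC12 (0.981), SGSM2 (0.98), NUMBL (0.979) and HEXIM1 (0.979). These are descriptions over libraries that fall into a young and a senescent set and share their GC trend. They were chosen for this likeness, so the order of the groups that they share with JAG2 restates the choice. QSOX1, for example, had 801 to 887 CPM in young empty-vector cells, 1110 to 1210 CPM with siLMNB1 and 1630 to 2030 CPM in senescent empty-vector cells. Their folds were far smaller than that of JAG2, with log2 fold changes at senescence with the empty vector from 0.65 (HEXIM1) to 1.74 (SGSM2). NUMBL, a relative of the Notch inhibitor NUMB, was already on the wider list. Its log2 fold change there was 0.94 (SE 0.09), below the size required, and 0.35 (SE 0.08) with the offsets. It is given without a test, since it was picked here for its likeness to JAG2.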

How the data were processed

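Read trimming was by Trimmomatic and alignment to GRCh38 by STAR, from which the authors deposited raw counts per gene for all 15 libraries. The annotation release and the strand setting are not given in the sources used here. All columns were assigned to groups by the labels. Genes were named and measured with GENCODE 44, which names 56948 of the 57272 genes. Counts were normalised by TMM, filtered with filterByExpr and fitted in edgeR 4.0.16 (limma 3.58.1, R 4.3.3) with 1 mean per group over all 15 libraries, and tested by quasi-likelihood with Benjamini-Hochberg adjustment over 15799 genes. A standard error is the log2 fold change divided by the root of its F value. Offsets came from loess curves (span 0.3, prior count 1) of log2 counts against GC content and exonic length in each library. Alternatives were DESeq2 1.42.0 (Wald test), RLE size factors, no filter, only the libraries compared, a replicate block, offsets with and without the block, glmTreat at the call threshold and each library left out in turn. The steps were tested on simulated data. Counting intervals are exact, at 95%. Python 3.11.15 with numpy 2.4.6, pandas 2.3.3, scipy 1.17.1 and matplotlib 3.10.9 served for summaries and figures. The genes and lists were chosen with earlier results of these data known. The text names all 10 genes, LMNB1 and TERF2, of the wider list up to 6 called genes in each direction whose libraries do not overlap, the nearest tested coding gene on each side of JAG2, and the 5 genes most correlated with it. The values of RBPJ, CCND1 and NEURL1 at senescence, of HES4 and HES6 beyond that limit, and of NEURL1B and HES6 in senescent cells with TRF2 were chosen after they were seen.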

Additional observations from a re-analysis of the deposited data

How the results depend on the processing

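Among 711 values of the 10 genes under the alternatives, 673 kept their direction and their side of the threshold, and 5 changed direction. These were NOTCH1 at senescence with the empty vector under the offsets (-0.50, and -0.52 with the replicate block), HEY1 there when 1 library was left out (-0.38 to 0.59), NOTCH3 in young cells with TRF2 (-0.12 to 0.00) and HES1 in senescent cells with TRF2 (-1.04 to 0.08). The calls among the 7 genes tested numbered 1, 5, 3, 0, 1 and 0 at senescence with the empty vector and TRF2, with siLMNB1, with TRF2 in young and in senescent cells, and in the interaction. Leaving out 1 library gave 1 to 2, 4 to 5, 3 to 4, 0, 0 to 3 and 0 to 5. With siLMNB1 the added call was HEYL, which passed the filter without siLMNB1 replicate 3. Only libraries with siLMNB1 reached the level that the filter requires for HEYL. A difference was thus favoured, and this call is not taken as a test. Against the fold threshold itself (glmTreat) calls numbered 3 at senescence with TRF2, 1 with siLMNB1 and 0 with TRF2 in senescent cells. With the offsets they numbered 2 at senescence with the empty vector. With TRF2 in young cells no filter and only the libraries compared each gave 1 call. With TRF2 in senescent cells DESeq2 and no filter each gave 2, and only the libraries compared gave 0. No filter gave 3 in the interaction. Among 587 values of the other genes named, 508 kept direction and side, 68 lost a call, 9 gained one and 2 changed direction (RBPJ at senescence with the empty vector, 0.05 with the offsets, with and without the block). The cause of these changes was not tested.

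Over all genes, glmTreat called 2444 and 2133 at senescence with the empty vector and TRF2, 946 with siLMNB1, and 1 and 127 with TRF2 in young and senescent cells, against 4499, 3794, 2893, 26 and 1092. With TRF2 in young cells DESeq2 called 89, no filter 165, only the libraries compared 100, and 1 library left out 1 to 18. With TRF2 in senescent cells only the libraries compared gave 2 calls, and 1 library left out gave 603 to 2318, the highest without empty vector replicate 1. The interaction, at 179, gave 565 with DESeq2, 955 with no filter, 8 with only the libraries compared, 338 with offsets, 333 with offsets and block, and 6 to 2089 with 1 library left out, the highest again without empty vector replicate 1.

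Libraries with the same replicate number did not deviate together (correlations of -0.0945 to 0.0615), and the main fit did not pair them. Such correlations cannot show whether these libraries were handled in parallel. A replicate block gave 4461 calls over all genes at senescence with the empty vector and the same number of calls among the 7 genes in every comparison, and NEURL1B was called with it in senescent cells with TRF2 (0.71, edgeR adjusted p = 0.049). Depth limits JAG2 in young cells, HEYL and HEY2.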
